A study of Mus musculus with 32 samples.

Results

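Genes of outer segment phagocytosis were followed across the series, namely the receptors *Mertk*, *Tyro3*, *Axl*, and *Cd36*, the integrin subunits *Itgav* and *Itgb5*, the ligands *Gas6*, *Pros1*, and *Mfge8*, and the motor gene *Myo7a*. These 10 members were chosen by symbol among the 34453 genes of the count table, each matched to a single Ensembl identifier. No cut on measured level was applied, but earlier results of these data were known when they were chosen. RNA had been taken from the retinal pigment epithelium (RPE) of 16 mice labelled *rd1*, a strain whose rods degenerate because of a mutation in *Pde6b*. In each mouse, a mixture of AAV Best1 Nrf2 and AAV Best1 GFP was injected into 1 eye (the Nrf2 eye), and the fellow eye was given the GFP vector alone (the control eye). The groups were the Nrf2 and control eyes of 7 mice at P20 and of 9 mice at P40. The transgene was human *NFE2L2* under the Best1 promoter, which restricts expression to the RPE, and every eye carried GFP.

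Photoreceptors shed the tips of their outer segments each day, and the RPE binds, engulfs, and digests them. Phosphatidylserine on the shed tips is bridged by MFG-E8 to the integrin αvβ5, which tethers them, and by GAS6 or protein S to the receptor tyrosine kinase MERTK, which triggers engulfment. TYRO3 and AXL belong with MERTK to the TAM family of receptors, CD36 is a scavenger receptor that takes part in uptake, and myosin VIIa, the product of *Myo7a*, moves phagosomes and melanosomes in the apical RPE. In the *rd1* retina rods are lost early, so that the amount of outer segment material that reaches the RPE differs from that in a healthy eye.

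Nrf2 is a transcription factor that binds antioxidant response elements, whose core is written TGACNNNGC, or TGANNNNGC in a looser form. The upstream sequences below are shown because *Gas6* was the member whose level rose in Nrf2 eyes, and because *Itgb5* and *Mfge8* were the members whose promoter held a match to the looser core. They are RefSeq sequences of GRCm38.p6, 250 bases before the annotated start and written in the direction of the gene, with a match in capitals. The windows are chr8:13494536-13494785 on the minus strand for *Gas6*, chr16:33829415-33829664 on the plus strand for *Itgb5*, and chr7:79149061-79149310 on the minus strand for *Mfge8*.
Gas6: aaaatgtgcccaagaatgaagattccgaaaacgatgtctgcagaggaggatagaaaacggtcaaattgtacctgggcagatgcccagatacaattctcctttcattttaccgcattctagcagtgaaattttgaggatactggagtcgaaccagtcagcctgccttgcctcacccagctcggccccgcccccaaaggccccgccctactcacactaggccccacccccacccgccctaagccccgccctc
Itgb5: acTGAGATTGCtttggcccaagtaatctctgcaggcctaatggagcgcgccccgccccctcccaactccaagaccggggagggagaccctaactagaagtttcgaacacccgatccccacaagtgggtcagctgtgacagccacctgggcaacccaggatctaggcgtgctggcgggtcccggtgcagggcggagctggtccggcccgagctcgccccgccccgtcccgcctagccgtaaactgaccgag
Mfge8: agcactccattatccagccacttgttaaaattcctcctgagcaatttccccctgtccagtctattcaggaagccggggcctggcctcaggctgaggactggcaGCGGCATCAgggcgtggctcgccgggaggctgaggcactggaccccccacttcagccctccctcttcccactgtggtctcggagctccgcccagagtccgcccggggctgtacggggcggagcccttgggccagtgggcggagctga
All 10 members had a promoter window of 300 bases, 250 before and 50 after the start, and *Mertk*, *Pros1*, *Axl*, and the rest together had 11 windows. On either strand, 0 of the 11 windows held TGACNNNGC, against 12.4% of 32851 promoters of the same length. TGANNNNGC was in 2 of the 11, against 41.3% of all promoters, and began at position -248 from the start of *Itgb5* and, on the opposite strand, at position -147 from that of *Mfge8*. A window without a match says only that these letters were not within it.

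Libraries held between 16548332 and 50542797 estimated counts, with a median of 34471849.5, and 3 counts corresponded to between 0.0566 and 0.182 CPM (counts per 1000000 of the normalized library size), a floor that covers counting error only. Transcripts of the human transgene were higher in the Nrf2 eye than in the control eye of all 16 mice, but the control eye of P20 mouse 3 held 1098 CPM and the Nrf2 eye of P20 mouse 4 held 1082 CPM, against 0.924 to 154 CPM in the other P20 control eyes and 4810 to 9506 CPM in the other P20 Nrf2 eyes. Counts of these 2 libraries lay closer to each other than those of any other pair of libraries, at 3.81 times the sampling noise, against 12.1 for the next pair. The P40 libraries differed in the level of genes with long transcripts relative to genes with short ones, and the cause was not tested. The median log2 level of genes with transcripts over 5000 bases minus that of genes under 1500 bases, each centred on the mean of all libraries, ranged from 0.20 to 0.75 at P20 and from -1.44 to 0.59 at P40, with 5 P40 libraries below -0.75. The methods describe 4 *rd1* pairs and 5 pairs of CD1, a wild-type strain, at P40, together as many as the 9 P40 mice. All 9 are labelled *rd1*, so the P40 groups may hold both strains. For P20 the methods give fewer pairs than the 7 that are labelled. Sequencing was done in 2 runs that the labels do not tie to libraries, and sample names of the 2 ages begin with different letters, so age, run, and strain cannot be told apart in comparisons between the ages. RPE markers were present in every library, with the summed level of 12 markers between 13676 and 84640 CPM.

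Divided by the length of the longest transcript, *Gas6* had the highest median level of the 10 members in all 4 groups. In P20 control eyes the medians were 147 CPM per kilobase for *Gas6*, 102 for *Itgb5*, 61.8 for *Mfge8*, and 39.0 for *Itgav*. The medians of these ligands and both integrin subunits were thus above those of the tyrosine kinase receptors, but the range of *Itgav*, from 18.9, overlapped that of *Axl*, up to 21.3. *Axl* followed at 15.5, *Mertk* at 15.2, *Tyro3* at 13.4, *Myo7a* at 9.20, and *Pros1* at 6.36 CPM per kilobase, and in this order each gene's range overlapped that of the next. *Cd36* was last, at 0.310 CPM per kilobase, with a range that did not reach that of *Pros1*. In P20 Nrf2 eyes *Gas6* had 386 CPM per kilobase and its range, from 185 to 553, lay above that of *Itgb5*, from 60.1 to 154. At P40, *Gas6* had 113 CPM per kilobase in control eyes against 336 in Nrf2 eyes, with ranges that overlapped those of *Itgb5*. With merged exons in place of the longest transcript, the order in P20 control eyes was the same except that *Mertk* stood above *Axl*. The medians were then 94.0 CPM per kilobase for *Itgb5*, 30.7 for *Mfge8*, and 25.6 for *Itgav*. By this measure the ranges of *Pros1*, from 1.49, and *Cd36*, up to 1.63 CPM per kilobase, overlapped.

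**Figure D1:**
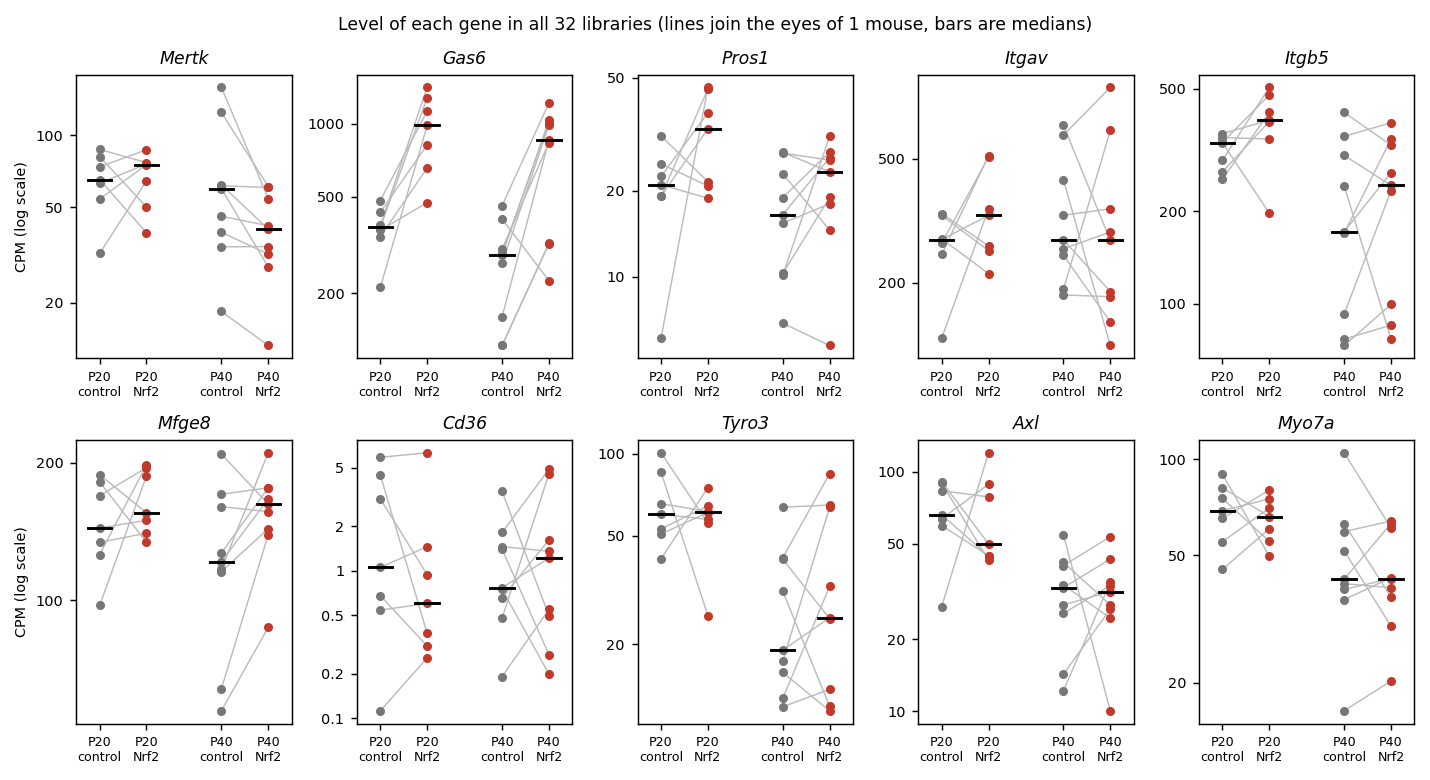
Level of each of the 10 genes in CPM, on a log scale, in the control eyes (grey) and Nrf2 eyes (red) at P20 and P40. Points are libraries, lines join the eyes of 1 mouse, and bars are medians. The *Gas6* line rises in all 7 mice at P20 and in 8 of 9 at P40, and the other genes have lines in both directions at both ages.

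The comparison of the Nrf2 eye with the control eye of the same mouse asked how this set differed between them. Nrf2 eyes received a second vector, in another capsid, on top of the GFP vector that both eyes received. Nrf2 and the added vector load therefore cannot be told apart in this comparison. *Gas6* was higher in Nrf2 eyes at both ages, and it was the only member past the threshold in the quasi-likelihood test at either age. At P20, 1 of 10 members was called, against 3.41% of the 16303 genes tested, and at P40 1 of 10, against 4.57% of 16686 genes. The median log2 fold change over the 10 members was 0.080 at P20 and 0.13 at P40, against medians over all genes tested of -0.041 and -0.026.

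*Gas6* lies at chr8:13465374-13494490 on the minus strand (GRCm38) and has a single annotated transcript of 15 exons and 2548 bases. In P20 control eyes it had 211 CPM at the lowest, 373 at the median, and 482 at the highest. In P20 Nrf2 eyes the values were 473, 983, and 1409 CPM. Of the 7 Nrf2 eyes, 6 stood above every control eye, and the groups overlapped through the pair of libraries whose transgene level went against the others, the highest control eye being that of mouse 3 and the lowest Nrf2 eye that of mouse 4. Within mice, the Nrf2 eye held between 1.30 and 4.65 times the level of the control eye and was higher in 7 of 7 mice. The fitted change was 2.47-fold, a log2 fold change of 1.30 ± 0.23 (SE, *n* = 7 mice), with an adjusted *P* value of 0.0223 by edgeR's quasi-likelihood test.
Without mice 3 and 4 the log2 fold change was 1.49, with an adjusted *P* value of 0.0292 by edgeR, and the lowest Nrf2 eye, at 656 CPM, then exceeded the highest control eye, at 431 CPM. Leaving out each mouse in turn kept the direction, with log2 fold changes between 1.17 and 1.44, but the adjusted *P* value passed the threshold in 2 of 7 such fits and was above it, at 0.0520 to 0.0885, without mouse 1, 3, 5, 6, or 7.

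At P40, *Gas6* had 122, 287, and 459 CPM in control eyes at the lowest, median, and highest, and 225, 856, and 1216 CPM in Nrf2 eyes. Of the 9 Nrf2 eyes, 6 stood above every control eye. The Nrf2 eye held the higher level in 8 of 9 mice, at 2.62 to 5.35 times the control eye, and mouse 6 went the other way, with 225 CPM in the Nrf2 eye and 405 CPM in the control eye. The fitted change was 2.66-fold, a log2 fold change of 1.41 ± 0.28 (SE, *n* = 9 mice), with an adjusted *P* value of 0.0116 by edgeR, and *Gas6* passed the threshold in all 9 fits that left out 1 mouse, with log2 fold changes between 1.29 and 1.65. The 3 lowest Nrf2 eyes, at 225 to 321 CPM, were those of mice 3, 6, and 8, the Nrf2 libraries with the fewest long transcripts, and without the mice that had such a library (3, 5, 6, and 8) the log2 fold change was 1.63, with an adjusted *P* value of 0.00494 by edgeR. The exons of *Gas6* share 34 bases with those of *Tmem255b* on the opposite strand, which had between 1 and 78 counts in any library, against at least 2014 for *Gas6*.

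Markers of other cell types moved in the same contrast. Of 11 macrophage and microglia markers, 0 were called at P20, where their median log2 fold change was 1.32, and 7 were higher in Nrf2 eyes at P40, among them *C1qa* and *Lyz2*. Their summed level was 126 to 411 CPM in P20 control eyes (median 251) and 163 to 727 CPM in P20 Nrf2 eyes (median 181), where the median sum was thus the lower. At P40 it was 95.9 to 470.0 CPM in control eyes (median 202) and 161 to 553 CPM in Nrf2 eyes (median 374). The groups overlapped at both ages. Of 12 RPE markers, 1 was lower in Nrf2 eyes at P20 and 5 at P40, among them *Rpe65*, the isomerase of the visual cycle, in both. Their summed level was 17368 to 32235 CPM in P20 control eyes (median 23585) and 21302 to 34468 in Nrf2 eyes (median 23720). At P40 it was 13676 to 74952 CPM in control eyes, with a median of 40188, and 15211 to 84640 CPM in Nrf2 eyes, with a median of 20618. The part of these cells in the level of *Gas6* was not tested, and in bulk RNA fewer cells of a type and less RNA per cell cannot be told apart.

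*Mertk*, the receptor for GAS6 and protein S that RPE cells need for engulfment, had 32.1, 65.2, and 87.2 CPM in P20 control eyes at the lowest, median, and highest, and 39.2, 75.4, and 87.0 CPM in P20 Nrf2 eyes. The groups lay within the same range, the Nrf2 eye was higher in 4 of 7 mice, and the log2 fold change was 0.022 ± 0.21 (SE), with a 95% confidence interval from -0.46 to 0.50. At P40 it had 18.4, 59.8, and 158 CPM in control eyes and 13.2, 40.6, and 61.1 CPM in Nrf2 eyes. The Nrf2 eye was lower in 8 of 9 mice and level with the control eye in mouse 3, with 34.3 and 34.2 CPM. The fitted log2 fold change was -0.61 ± 0.18 (SE, *n* = 9 mice), with a confidence interval from -1.01 to -0.21 and an adjusted *P* value of 0.0995 by edgeR, which did not pass the threshold, and DESeq2 gave 0.0294. The 2 highest control eyes, at 158 and 125 CPM in mice 1 and 9, were paired with Nrf2 eyes at 54.4 and 61.1 CPM, and leaving out each mouse in turn gave log2 fold changes between -0.68 and -0.49. In the same eyes the RPE markers above had the lower median sum in Nrf2 eyes, and the part of this in the level of *Mertk* was not tested. So at P40 the values of the ligand and of its receptor lay on opposite sides of 0, but only that of the ligand passed the test.

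*Pros1*, which encodes the other TAM ligand protein S, had 6.07, 21.02, and 31.2 CPM in P20 control eyes and 18.9, 33.0, and 46.2 CPM in Nrf2 eyes. The higher eye was the Nrf2 eye in 4 of 7 mice, and the log2 fold change was 0.60, with a confidence interval from -0.30 to 1.51. At P40 it had 6.85 to 27.3 CPM in control eyes and 5.72 to 31.1 CPM in Nrf2 eyes, with a log2 fold change of 0.26 (interval -0.24 to 0.76). No difference was detectable at either age, but an increase as large as that of *Gas6* at P20 lay within the P20 interval and outside the P40 interval.

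*Mfge8*, whose product tethers shed tips to the integrin, had 97.5, 144, and 188 CPM in P20 control eyes and 134, 155, and 198 CPM in Nrf2 eyes, with a log2 fold change of 0.14 (interval -0.23 to 0.51). At P40 it had 57.4, 122, and 209 CPM in control eyes and 87.4, 163, and 210.5 CPM in Nrf2 eyes. It was higher in 7 of 9 Nrf2 eyes, and its log2 fold change of 0.35 ± 0.17 (SE) did not pass the threshold, with an adjusted *P* value of 0.439 by edgeR. The β5 subunit *Itgb5* had a log2 fold change of 0.25 (interval -0.18 to 0.68) at P20 and 0.13 (interval -0.45 to 0.71) at P40, from medians of 334 and 394 CPM in P20 control and Nrf2 eyes and 172 and 242 CPM at P40. The αv subunit *Itgav*, with medians of 275 and 329 CPM in control and Nrf2 eyes at P20 and 275 and 274 CPM at P40, changed by 0.32 (interval -0.24 to 0.89) and -0.25 (interval -0.94 to 0.44) at the respective ages on the log2 scale. None of these intervals excluded 0, for the ligand or for either subunit.

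*Tyro3* had 41.1, 59.9, and 101 CPM in P20 control eyes and 25.5, 60.8, and 75.02 CPM in P20 Nrf2 eyes, a log2 fold change of -0.21 (interval -0.85 to 0.44). At P40 its log2 fold change was 0.21 (interval -0.47 to 0.89). *Axl* changed by -0.14 (interval -0.97 to 0.70) at P20 and 0.027 (interval -0.68 to 0.74) at P40, and *Myo7a* by -0.087 (interval -0.46 to 0.28) and -0.15 (interval -0.55 to 0.24). *Cd36* was near the floor, with 0.112 to 5.86 CPM in P20 control eyes, 0.256 to 6.30 CPM in P20 Nrf2 eyes, and 0.192 to 4.87 CPM over both groups at P40, from as few as 4 counts. Its intervals, from -1.95 to 0.65 at P20 and from -1.35 to 1.62 at P40, were the widest of the 10 members in either comparison. None of these 4 genes passed the threshold, and an increase as large as that of *Gas6* lay outside the intervals of *Tyro3*, *Axl*, and *Myo7a* at both ages.

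**Figure D2:**
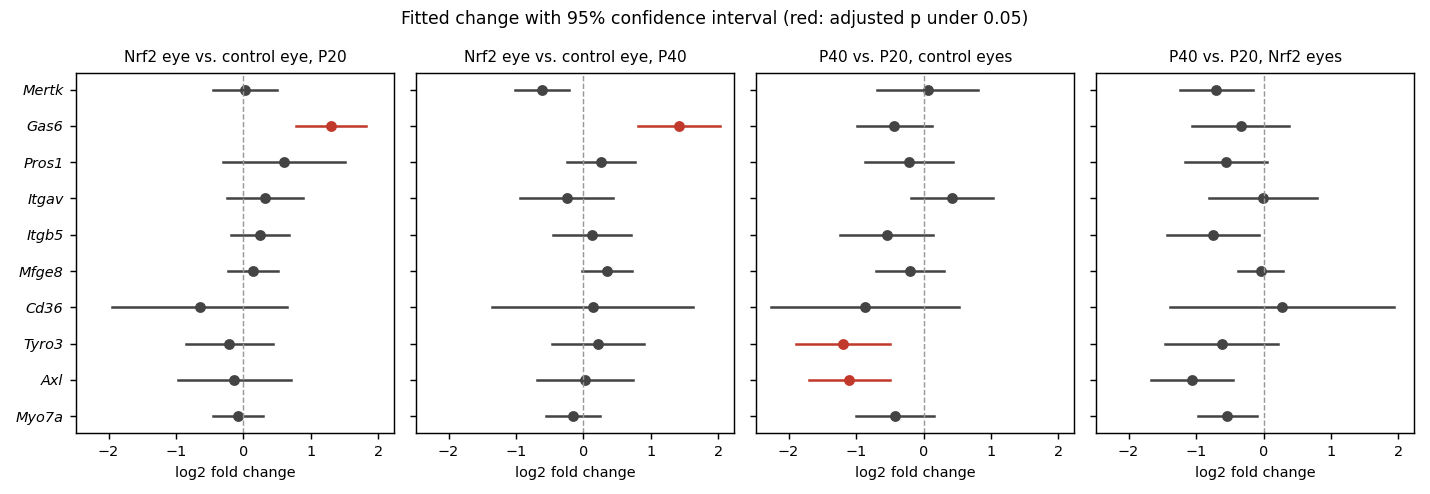
Fitted log2 fold change of the 10 genes, with its 95% confidence interval, in the 4 comparisons. Points are fitted values, bars are intervals, and red marks an adjusted *P* value under 0.05. Red are *Gas6* in the Nrf2 comparisons, at 1.30 and 1.41, and *Tyro3* and *Axl* in control eyes between the ages, at -1.19 and -1.10. The intervals of *Tyro3* and *Axl* there overlap those of all other members except *Itgav*.

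Whether the Nrf2 effect differed between the ages was tested as the difference of the within-mouse changes over all 32 libraries. No member passed the threshold, against 0.00557% of the 17959 genes tested, 1 member had an unadjusted *P* value under 0.05, and DESeq2 and limma voom each called 0. That member was *Mertk*, whose change at P40 minus that at P20 was -0.63 ± 0.29 (SE), with an unadjusted *P* value of 0.0431 and an adjusted value of 1.000 by edgeR. For *Gas6* the difference was 0.12 ± 0.39 (SE), with an interval from -0.70 to 0.94, so the effects on *Gas6* at the 2 ages could not be told apart within an interval of that width. For the other members the difference was -0.34 for *Pros1*, 0.21 for *Mfge8*, -0.57 for *Itgav*, -0.11 for *Itgb5*, 0.78 for *Cd36*, 0.43 for *Tyro3*, 0.17 for *Axl*, and -0.058 for *Myo7a*, each with an interval that held 0.

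The comparison of P40 with P20 asked how the set differed between mice of the 2 ages. Age, run, and strain cannot be told apart in it, since the P40 groups may hold CD1 mice. In control eyes 2 of 10 members were called, *Tyro3* and *Axl*, both lower at P40, against 14.8% of the 16832 genes tested in either direction. Of the members, 8 had a negative and 2 a positive log2 fold change, and the median was -0.43, against -4.6e-05 over all genes. Both called members are TAM receptors, while the third receptor of the family, *Mertk*, had a log2 fold change of 0.061, with an interval from -0.68 to 0.81.

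*Axl* (chr7:25757273-25788705, minus strand) had 27.3, 66.2, and 91.04 CPM in P20 control eyes and 12.2, 32.8, and 54.5 CPM in P40 control eyes. The groups overlapped, with 3 of 9 P40 eyes below every P20 eye. Its log2 fold change was -1.10 ± 0.28 (SE), with an adjusted *P* value of 0.0280 by edgeR, and it passed the threshold in 12 of 16 fits that left out 1 library, at -1.24 to -1.03. It did not pass, at adjusted values of 0.0543 to 0.0623, without the control eye of P20 mouse 1, 3, 5, or 7.
*Tyro3* (chr2:119797733-119818104, plus strand) had 41.1, 59.9, and 101 CPM in P20 control eyes and 11.8, 19.04, and 63.6 CPM in P40 control eyes, and 7 of 9 P40 eyes were below every P20 eye. Its log2 fold change was -1.19 ± 0.33 (SE), with an adjusted *P* value of 0.0326 by edgeR. It passed in 7 of 16 fits that left out 1 library, with log2 fold changes of -1.43 to -1.05, and did not pass, at 0.0514 to 0.0609, without the control eye of P20 mouse 1, 2, 3, 5, 6, or 7 or of P40 mouse 2, 3, or 5.

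The levels of both receptors were lower in the P40 libraries with a low relative level of long transcripts. *Tyro3* had 11.4 to 13.7 CPM in the 5 P40 libraries below -0.75 and 15.8 to 84.4 CPM in the other 13, without overlap. *Axl* had 10.02 to 34.5 CPM in the 5 and 25.6 to 54.5 CPM in the 13, and *Itgb5* 73.4 to 99.7 and 76.9 to 418 CPM. For *Mertk* the ranges were 13.2 to 39.3 CPM in the 5 and 18.4 to 158 CPM in the 13. Of the members with the longest transcripts, *Itgav* (7054 bases) had medians of 594 CPM in the 5 and 257 CPM in the 13. *Myo7a* (7506 bases) had 39.6 and 42.3 CPM. Medians of the shorter *Gas6* (2548 bases) were 225 and 459 CPM, and those of *Mfge8* (2330 bases) 117 and 163 CPM. Why these levels differed was not tested. When each library was corrected for transcript length and base composition, the log2 fold change between the ages in control eyes was -0.72 for *Axl* and -0.82 for *Tyro3*, with adjusted *P* values of 0.0682 and 0.0551 by edgeR. Without P40 mice 3, 5, 6, and 8 it was -1.02 for *Axl*, with an adjusted value of 0.0486, and -0.83 for *Tyro3*, with 0.137. Without P20 mice 3 and 4, neither passed, at 0.0905 and 0.0851. In this comparison 3 of 8 fibroblast and mural markers were also lower at P40, *Col1a1*, *Col1a2*, and *Pdgfra*, with a summed level of the list of 198 to 1300 CPM at P20 and 245 to 1134 CPM at P40, and the part of these cells was not tested.

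**Figure D3:**
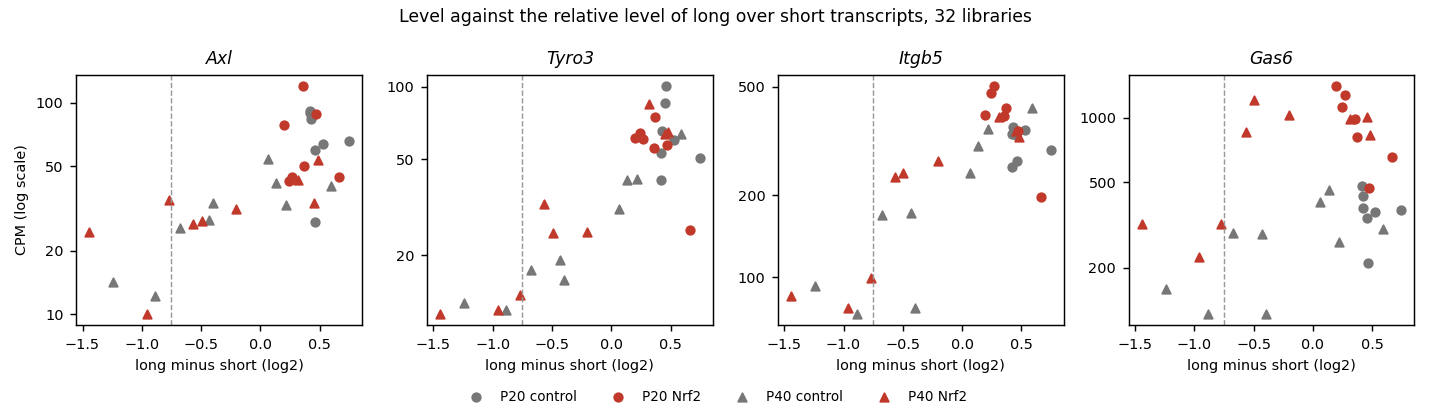
Level of *Axl*, *Tyro3*, *Itgb5*, and *Gas6* in CPM (log scale) against the log2 level of long minus short transcripts in each of the 32 libraries. Circles are P20, triangles P40, grey control eyes, and red Nrf2 eyes, and the dashed line is at -0.75. The 5 P40 libraries left of the line have 11.4 to 13.7 CPM of *Tyro3* and 73.4 to 99.7 CPM of *Itgb5*.

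The other members were not called by edgeR between the ages in control eyes. *Gas6* had a log2 fold change of -0.43 (interval -0.99 to 0.13), *Pros1* of -0.22 (-0.87 to 0.44), and *Mfge8* of -0.20 (-0.70 to 0.30), so that none of the ligands had an interval that excluded 0. The subunit *Itgb5* had -0.55 (-1.23 to 0.14), *Itgav* 0.43 (-0.18 to 1.03), *Myo7a* -0.42 (-0.996 to 0.16), and *Cd36* -0.87 (-2.27 to 0.52). By limma voom with quality weights *Myo7a* was called as well, at -0.62 with an adjusted *P* value of 0.0359. The SD of *Mertk* in control eyes was 18.5 CPM at P20 and 45.3 CPM at P40.

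In Nrf2 eyes, 0 of 10 members passed the threshold between the ages, against 0.502% of 16745 genes, 4 had an unadjusted *P* value under 0.05, DESeq2 called 1, and limma voom with quality weights called 6 (*Mertk*, *Itgav*, *Itgb5*, *Tyro3*, *Axl*, and *Myo7a*, each lower at P40). Of the 10, 9 had a negative log2 fold change, with a median of -0.55, against 0.020 over all genes. *Axl* had 42.6, 49.99, and 120.2 CPM in P20 Nrf2 eyes and 10.02, 31.6, and 53.6 CPM in P40 Nrf2 eyes, and 7 of 9 P40 eyes were below every P20 eye. Its log2 fold change of -1.06 ± 0.29 (SE) had an adjusted *P* value of 0.106 by edgeR and of 0.0168 by DESeq2. *Mertk* had a log2 fold change of -0.70 ± 0.26, with an adjusted value of 0.120, *Itgb5* of -0.75 ± 0.32, with 0.161, and *Myo7a* of -0.54 ± 0.21, with 0.131, all by edgeR. *Tyro3* had -0.62 (interval -1.46 to 0.22), *Pros1* -0.56 (-1.17 to 0.05), *Gas6* -0.34 (-1.06 to 0.38), *Mfge8* -0.042 (-0.37 to 0.29), *Itgav* -0.011 (-0.81 to 0.79), and *Cd36* 0.28 (-1.38 to 1.94). The value of *Itgav* was -0.90 by limma voom, with an adjusted *P* value of 0.0291. Whether the change with age differed between control and Nrf2 eyes is the same contrast as the difference in within-mouse changes above, in which no member passed.

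Beyond the 10 members, 64 genes of the same process were counted in 5 lists. In each of the 4 comparisons described here 61 were tested, and *Timd4*, *Havcr1*, and *Stab2* were too low. In Nrf2 eyes at P20, 3 of the 61 rose and 1 fell, and at P40 2 rose and 0 fell, beside 3.41% and 4.57% of all genes tested. Among the other ligands of MERTK and the proteases that shed it (5 genes), *Adam9*, a membrane metalloprotease, rose at P20 by 0.997 ± 0.18 on the log2 scale, with an adjusted *P* value of 0.0226 by edgeR. It had 58.4 to 96.1 CPM in control eyes and 96.3 to 241 CPM in Nrf2 eyes, so the groups nearly touched but did not overlap. The values at the edge, 96.1 and 96.3 CPM, were those of the control eye of mouse 3 and the Nrf2 eye of mouse 4, whose transgene level went against the others. *Tulp1*, a MERTK ligand that is mainly known as a photoreceptor protein, fell by 1.63 ± 0.25 on the log2 scale, with an adjusted *P* value of 0.0145 by edgeR, from 13.4 to 57.6 CPM in control eyes to 5.41 to 12.8 CPM in Nrf2 eyes. Of 5 cone markers 2 also fell at P20 and all 5 at P40, with a summed level of 29.0 to 782 CPM in P20 control eyes and 11.4 to 60.3 CPM in P20 Nrf2 eyes, and the part of photoreceptor RNA in the level of *Tulp1* was not tested.

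Of the 15 tested clearance receptors and bridging proteins, *Cd81*, a tetraspanin that works with αvβ5 in the RPE, rose at P20 from 370.0 to 797 CPM in control eyes to 744 to 1909 CPM in Nrf2 eyes. Its log2 fold change was 1.10 ± 0.21, with an adjusted *P* value of 0.0291 by edgeR and 0.0588 with the length and GC correction. When 1 mouse was left out, *Adam9* passed in 2, *Tulp1* in 4, and *Cd81* in 1 of 7 fits, each with the direction kept and with adjusted values up to 0.0886, 0.0570, and 0.112. None of them was called at P40, where most mice went the same way. There *Adam9* was higher in the Nrf2 eye of 8 of 9 mice, *Cd81* higher in 9 of 9, and *Tulp1* lower in 8 of 9. Of the 15 genes of engulfment signalling, *Elmo1*, a partner of DOCK1 in the activation of RAC, rose at P40 by 1.27 ± 0.20 on the log2 scale, with an adjusted *P* value of 0.00300 by edgeR. It had 5.57 to 12.6 CPM in control eyes and 9.25 to 35.2 CPM in Nrf2 eyes, was higher in 9 of 9 mice, and passed in all 9 fits that left out 1 mouse. The macrophage markers given above rose in the same comparison, and their part in *Elmo1* was not tested.
Of the 16 genes of phagosome transport and maturation, *Lamp2*, a membrane protein of lysosomes, rose at P20 by 0.87 ± 0.13 on the log2 scale, with an adjusted *P* value of 0.0134 by edgeR, and at P40 by 0.72 ± 0.18, with 0.0372. At P20 it had 348 to 516 CPM in control eyes and 523 to 948 CPM in Nrf2 eyes, without overlap. The values at the edge, 516 and 523 CPM, were again those of the control eye of mouse 3 and the Nrf2 eye of mouse 4. The call was lost in 3 of 7 and 8 of 9 fits that left out 1 mouse at P20 and P40, with adjusted values up to 0.0592 and 0.123, and with the length and GC correction at P20, at 0.0632, and at P40 with no filter on low counts, at 0.0581, and without P40 mice 3, 5, 6, and 8, at 0.141. Of the 10 genes of actin and motors, 0 were called at either age, with medians of 0.21 and 0.22, and the lowest unadjusted *P* values were 0.00561 and 0.00982.

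**Figure D4:**
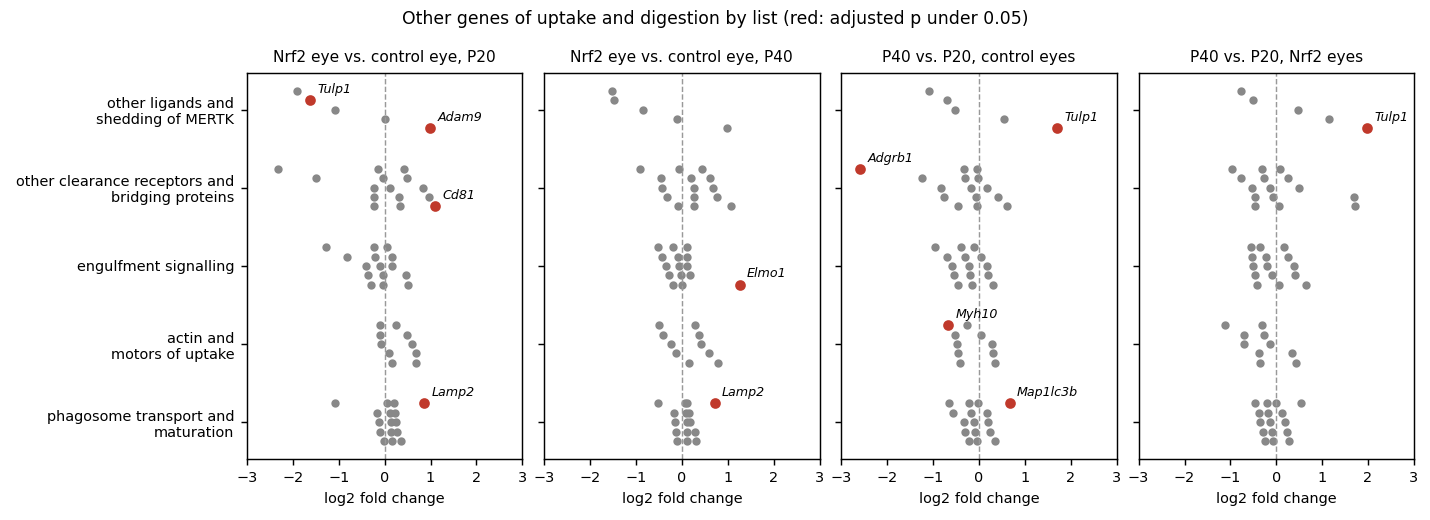
Log2 fold changes of the 61 other genes tested, by list, in the 4 comparisons. Each point is a gene, red marks an adjusted *P* value under 0.05, and the called genes are named. At most 4 of the 61 are called in any comparison, with *Adgrb1* at -2.59 and *Tulp1* at 1.98 at the extremes.

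Between the ages in control eyes, 2 of the 61 rose and 2 fell, beside 14.8% of all genes tested that were called in either direction. *Tulp1* rose by 1.71 ± 0.44 on the log2 scale, with an adjusted *P* value of 0.0274, and *Map1lc3b*, a protein of LC3-associated phagocytosis and autophagy, by 0.67 ± 0.19, with 0.0327. All 5 cone markers had positive log2 fold changes here too, with a median of 1.56 and 0 called, and 4 of 6 rod markers had negative ones. The part of photoreceptor RNA in the rise of *Tulp1* was not tested. *Adgrb1*, a phosphatidylserine receptor, fell by 2.59 ± 0.69, with 0.0300, at 0.333 to 8.80 CPM at P20 and 0.0425 to 1.03 CPM at P40, where 1 library was at the floor. *Myh10*, a nonmuscle myosin II heavy chain, fell by 0.67 ± 0.17, with 0.0259, all by edgeR. With the length and GC correction the value of *Myh10* was -0.25, with an adjusted *P* value of 0.259, and that of *Adgrb1* -1.64, with 0.0882. In Nrf2 eyes *Tulp1* alone of the 61 was called, beside 0.502% of all genes tested. It rose by 1.98 ± 0.41, from 5.41 to 12.8 CPM at P20 to 10.7 to 91.2 CPM at P40, with an adjusted value of 0.0428 by edgeR. All 5 cone markers again had positive log2 fold changes, with a median of 1.20 and 0 called, and 4 of the 5 rod markers tested had negative ones. None of these 5 calls between the ages held without P20 mice 3 and 4, at adjusted values from 0.0728 to 0.164. When 1 library was left out, the call held in 11 of 16 fits for *Tulp1*, 12 for *Adgrb1*, 14 for *Myh10*, and 6 for *Map1lc3b* in control eyes, and in 5 of 16 for *Tulp1* in Nrf2 eyes, with adjusted values up to 0.112.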

How the data were processed

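RNA of the RPE was amplified from both eyes of 16 mice. The authors aligned reads to mm10 with Ensembl release 91, and Salmon 0.9.1, named in the submitters' processing notes along with FastQC, gave estimated counts per isoform that were summed per gene. What was deposited are whole-number estimated counts per gene without normalization. That they come from Salmon and not from featureCounts, which the authors also ran, was inferred from the genes listed. Strand was not used, since the kit does not mark it.

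The analysis ran in R 4.3.3 and edgeR 4.0.16 (filterByExpr, TMM, quasi-likelihood test). Mouse was a block within an age, and there was no block between the ages. Benjamini-Hochberg adjustment ran over all genes tested, with a threshold of 0.05 for the adjusted *P* value. Intervals are 95% confidence intervals of the fit. CPM are counts per 1000000 of the normalized library size, and differences between eyes used a prior count of 2. Pairs are the eyes of 1 mouse, per the labels and methods. The correlation between the eyes of a mouse, after subtraction of group means, averaged 0.0213 (P20) and 0.0990 (P40), and exceeded 0.1 in 3 mice per age. Eyes at the 2 ages came from different mice. Coordinates and lengths are those of GENCODE M21 (GRCm38), the build of the files, and symbols were matched for 34401 of 34453 rows.

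Alternatives were DESeq2 1.42.0, limma 3.58.1 voom with quality weights, RLE size factors, no filter, the other choice of block, no P20 mice 3 and 4, and leaving out each mouse or library. A spline correction for transcript length and GC content (4 degrees of freedom) and fits without P40 mice 3, 5, 6, and 8 were added after seeing the data. The tests were first run on simulated data. The members and lists were chosen with earlier results of these data known. All 10 members are named in every comparison, and of the 64 other genes those past the threshold, up to 6 a comparison by size of change.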

Additional observations from a re-analysis of the deposited data

Results flagged for a closer look

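Over the 10 members and 4 groups, 40 sets of values were searched for a single library far from the rest of its group, by the gap to the nearest library relative to the range, with a limit of 0.568 for 7 libraries and 0.493 for 9. Chance alone sets off about 1 in 20 such searches. In 3 of the 40 a value stood apart. *Tyro3* in the Nrf2 eye of P20 mouse 2 was low, at 25.5 CPM against 55.6 CPM in the next library, a gap of 0.608 of the range. *Cd36*, the member with the lowest counts, was high in the Nrf2 eye of P20 mouse 2, at 6.30 CPM against 1.46 CPM in the next library (0.802 of the range), and in the control eye of P40 mouse 9, at 3.45 CPM against 1.82 CPM (0.501 of the range). By edgeR no comparison that used these libraries called the gene in question, but limma voom with quality weights called *Tyro3* between the ages in Nrf2 eyes.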

How the results depend on the processing

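In the Nrf2 comparisons *Gas6* kept its direction in every fit run and its call in every fit that did not leave out a single mouse. The counts of members called were 1 at P20 and 1 at P40 throughout, except 2 at P40 by DESeq2 and 0 to 1 without 1 mouse at P20. Between the ages in control eyes the 2 calls became 3 by limma voom, 1 with no filter, 0 with the replicate block on mouse numbers, 0 without P20 mice 3 and 4, 0 with the length and GC correction, 1 without P40 mice 3, 5, 6, and 8, and 0 to 2 without 1 library, and in Nrf2 eyes 0 became 1 by DESeq2 and 6 by limma voom.

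Counts over all genes moved more. For Nrf2 at P20 they were 556 in the fit reported, 1951 by DESeq2, 2605 by limma voom, 348 with no filter, 1093 with no replicate block, and 111 to 1999 without 1 mouse. For Nrf2 at P40 they were 762, 1380 by DESeq2, 1327 by limma voom, and 494 without P40 mice 3, 5, 6, and 8. In control eyes between the ages they were 2483, 4362, 3747, 914 with no filter, 191 with the replicate block, 158 without P20 mice 3 and 4, 1355 with the correction, 630 without the 4 P40 mice, and 473 to 4273 without 1 library. In Nrf2 eyes they were 84, 1762, 2213, 31, 3 with the block, 20, 36 without the 4 P40 mice, and 21 to 190. For the difference of the effects they were 1, 12 by DESeq2, and 0 without the 4 P40 mice. Eyes of different ages share only a mouse number, so the block between the ages pairs nothing. The block changed no other call of a member. The causes of these shifts were not tested.

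Signs turned only for members not called in the fit reported, of which limma voom called *Myo7a* in control eyes and *Itgav* in Nrf2 eyes. By limma voom these were *Tyro3* (0.12) and *Myo7a* (0.091) for Nrf2 at P20, *Cd36* (-0.21) for Nrf2 at P40, *Mertk* (-0.053), *Itgav* (-0.0065), and *Cd36* (0.031) between the ages in control eyes, *Mfge8* (0.075) and *Cd36* (-0.19) in Nrf2 eyes, and the difference for *Pros1* (0.18). With the correction they were *Myo7a* at P20 (0.087) and between the ages in control eyes (0.12), *Mfge8* in Nrf2 eyes (0.013), and the difference for *Gas6* (-0.041). Without P20 mice 3 and 4 they were *Itgav* (0.039) and *Cd36* (-0.10) in Nrf2 eyes and the difference for *Gas6* (-0.11). Without the 4 P40 mice they were *Cd36* for Nrf2 at P40 (-0.96) and in Nrf2 eyes (-1.23), *Mfge8* in control (0.10) and Nrf2 eyes (0.016), *Gas6* in Nrf2 eyes (0.081), and the differences for *Mfge8* (-0.058), *Cd36* (-0.30), and *Myo7a* (0.10). With the block changed they were *Axl* for Nrf2 at P40 (-0.024) and *Mertk* in control eyes (-0.12).

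Leaving out 1 mouse or library turned the sign only of values not called in the fit reported. The values ran from -0.12 to 0.16 for *Mertk*, -0.37 to 0.039 for *Tyro3*, -0.44 to 0.052 for *Axl*, and -0.16 to 0.046 for *Myo7a* for Nrf2 at P20, from -0.019 to 0.33 for *Itgb5*, -0.20 to 0.51 for *Cd36*, and -0.11 to 0.29 for *Axl* at P40, from -0.20 to 0.19 for *Mertk* in control eyes, from -0.32 to 0.11 for *Itgav*, -0.13 to 0.033 for *Mfge8*, and -0.12 to 1.37 for *Cd36* in Nrf2 eyes, and from -0.037 to 0.32 for *Gas6*, -0.29 to 0.056 for *Itgb5*, -0.0071 to 0.50 for *Axl*, and -0.19 to 0.027 for *Myo7a* for the difference. *Cd36* had as few as 4 counts in a library, which limits every statement on it.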
